A study of Mus musculus with 18 samples.

Results

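The genes described here are 10 surface molecules through which regulatory T cells receive or deliver costimulation. They were chosen by name, as Icos, Cd28, Cd83, Cd226, Tnfrsf4, Tnfrsf9, Tnfrsf1b, Tnfrsf25, Cd27 and Cd40lg, out of 35275 gene identifiers in the deposited table, and all 10 passed the filter that left 12223 genes for testing. The RNA came from Foxp3+ regulatory T cells of male mice aged 6 to 8 weeks, enriched on a CD4 column and then sorted on the yellow fluorescent protein (YFP) of the Foxp3-YFP-cre allele. Every one of the 18 libraries therefore carries this cre, which acts in cells that express Foxp3. There are 5 deletion groups, named here by their labels: Dyrk1 deletion (Dyrk1-fl/flFoxp3YFPcre), HDAC1 deletion (HDAC1-fl/flFoxp3cre), HDAC2 deletion (HDAC2-fl/flFoxp3cre), Mef2c deletion (Mef2c-fl/flFoxp3cre) and Mef2d deletion (Mef2d-fl/flFoxp3cre). The wild type group (Foxp3YFPcre) has the cre allele and no floxed gene. Each group has 3 libraries, which the series text calls independent biological replicates. Dyrk1a and Dyrk1b are related kinase genes, and the label Dyrk1 leaves unsaid which was floxed.

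A T cell that recognises antigen through its receptor needs second signals, and those signals come through 2 protein families. CD28 and ICOS belong to the immunoglobulin (Ig) family and act through phosphoinositide 3-kinase and its partners, whereas OX40, 4-1BB, TNFR2, DR3 and CD27 belong to the TNF receptor superfamily and act through TRAF adaptors and NF-kB. In regulatory T cells these receptors are known to support survival, expansion and the effector state, and several are present at higher levels there than in conventional resting CD4 T cells.

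Levels are given in FPKM, fragments per kilobase of gene scaled by library depth. The deposited table does not name its unit, and this one was inferred from the values. Comparisons of level between genes rest on that reading, and the gene lengths the submitters used are not known. Differences are log2 differences of FPKM + 1 between group means, with the standard error (SE) of limma's fit over all 18 libraries. A gene is called where the Benjamini-Hochberg adjusted p over the 12223 genes is under 0.05. All 5 comparisons with wild type share the same 3 wild-type libraries, so a low or high wild-type library enters each of them.

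Depth was estimated, from the steps of the low values, at 15.92 to 24.09 M fragments per library, and the thinnest value among the 10 genes, Cd40lg in its lowest library, stands for about 379 fragments. The defining markers of regulatory and CD4 T cells were present in all 18 libraries, with Foxp3 between 82.5 and 118 FPKM. Hdac1 averaged 32.0 ± 4.34 FPKM in the HDAC1 deletion group and 119 ± 3.05 FPKM in wild type (SD, n = 3 each). No other targeted gene passed the test as lower under its own label. By limma, Mef2d passed as higher with Mef2d deletion (log2 difference 0.35, adjusted p = 0.00718). Dyrk1b (0.68, adjusted p = 0.000679) and Dyrk1a (0.25, adjusted p = 0.0352) passed as higher with Dyrk1 deletion. Hdac2 and Mef2c were not called under their own labels. Hdac2 averaged 27.9 FPKM in the HDAC2 deletion group and 28.3 FPKM in wild type, Mef2d 53.4 FPKM in the Mef2d deletion group and 41.7 FPKM in wild type, and Mef2c 1.27 FPKM in the Mef2c deletion group and 0.476 FPKM in wild type. Dyrk1a averaged 33.1 FPKM in the Dyrk1 deletion group and 27.7 FPKM in wild type, and Dyrk1b averaged 11.8 FPKM in the Dyrk1 deletion group and 7.001 FPKM in wild type. These values cover whole genes, so they do not by themselves check the loss of a floxed exon, and the groups are named by their labels throughout. More B cell marker RNA than in the rest was found in 3 libraries, all of them labelled replicate 1: the 9 markers summed to 388 FPKM in Dyrk1 deletion replicate 1, 173 FPKM in Mef2d deletion replicate 1 and 121 FPKM in Mef2c deletion replicate 1, against 22.0 to 79.1 FPKM in the other 15. The 2 CD8 T cell markers summed to 68.8 FPKM in Dyrk1 deletion replicate 1, against 7.04 to 20.8 FPKM in the other libraries. The part of CD8 T cells in the differences below was not tested. In such bulk samples, fewer cells of a type and less RNA per cell cannot be told apart.

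Of the 5 TNF receptor genes, 4 lie on chromosome 4, and so does Hdac1. By GENCODE M21 on GRCm38, Tnfrsf1b is at chr4:145213463-145246870 on the minus strand, 15.7 Mb from Hdac1, Tnfrsf9 at chr4:150914562-150946102 (21.4 Mb), Tnfrsf25 at chr4:152115934-152120119 (22.6 Mb) and Tnfrsf4 at chr4:156013843-156016612 (26.5 Mb), these 3 on the plus strand. Icos (chr1:60977927-61000320) and Cd28 (chr1:60716800-60773359) are both on the plus strand of chromosome 1. Cd83 (chr13:43784775-43803132) and Cd40lg (chrX:57212143-57224042) are also on the plus strand, and Cd27 (chr6:125232622-125237010) is on the minus strand.

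Promoter windows, from 250 bases before to 50 bases after an annotated start, were found for 5 of the 10 genes in RefSeq's GRCm38.p6 annotation: Tnfrsf4, Tnfrsf9, Tnfrsf1b, Tnfrsf25 and Cd27, with 7 windows in all. Of these, 2 are shown, from the TNF receptor genes called lower against wild type, Tnfrsf4 in both HDAC deletion groups and Tnfrsf9 in the Mef2d deletion group. Windows are shown because the targeted proteins include histone deacetylases and factors that bind DNA. Tnfrsf9 has another window, at the first of its RefSeq starts found here, and only the one with motif matches is shown. Both Tnfrsf9 windows lie inside the GENCODE gene, which begins at 150914562, while the first window begins at 150919905. Neither gene was called between an HDAC deletion group and the Mef2d deletion group. Both are on the plus strand, and capitals mark letters that matched a searched motif.
Tnfrsf9, second start, chr4:150927749-150928048: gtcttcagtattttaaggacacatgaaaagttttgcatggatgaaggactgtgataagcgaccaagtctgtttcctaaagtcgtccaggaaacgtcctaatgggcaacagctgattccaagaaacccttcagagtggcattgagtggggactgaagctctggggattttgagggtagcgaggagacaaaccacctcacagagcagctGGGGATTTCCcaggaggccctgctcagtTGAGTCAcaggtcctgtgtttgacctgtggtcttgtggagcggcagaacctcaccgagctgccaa
Tnfrsf4, chr4:156013445-156013744: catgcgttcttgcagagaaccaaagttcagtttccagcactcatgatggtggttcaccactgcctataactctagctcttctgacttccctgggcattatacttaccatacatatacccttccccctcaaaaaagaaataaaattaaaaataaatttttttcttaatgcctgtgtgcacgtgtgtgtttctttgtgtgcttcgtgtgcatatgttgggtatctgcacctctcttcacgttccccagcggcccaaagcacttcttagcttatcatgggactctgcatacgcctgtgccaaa
The motifs searched on both strands were CTANNNNTAG, the core bound by MEF2 factors, GGGNNNTTCC, a core of NF-kB sites, and TGANTCA, the core of AP-1 sites. They do not overlap in the windows shown. The Tnfrsf9 window shown holds 1 NF-kB core starting 43 bases before the annotated start and 1 AP-1 core starting 15 bases before it. The Tnfrsf9 window at the first start holds none of the 3. The Tnfrsf4 window holds none of the 3, and of the other 5 windows, 1 of Tnfrsf25 holds an NF-kB core. That Tnfrsf4 window follows RefSeq's start and ends, at 156013744, before the GENCODE start of the gene at 156013843. No window of these genes holds the MEF2 core letters. Over all 32851 promoter windows of the same length, 3.69% hold the MEF2 core, 5.56% the NF-kB core and 7.81% the AP-1 core. The motif letters were settled after a first, looser NF-kB pattern had been run on these windows, so the matches are descriptions only.

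Among all genes tested, the 10 were well expressed in wild-type cells: Cd40lg, the lowest, was above 69.4% of the tested genes there and Tnfrsf4, the highest, above 97.9%. Their means over the 18 libraries ran from 23.7 FPKM for Cd40lg to 199.6 FPKM for Cd27. Each gene spanned a narrow range over the 18 libraries, from 1.41 times between the lowest and the highest for Tnfrsf9 to 2.28 times for Cd83. A test over the 6 groups together called 7 of the 10 genes, where it called 38.6% of all genes. Cd83 (adjusted p = 7.45e-06) and Cd40lg (adjusted p = 6.65e-05) had the smallest values, and Cd28, Tnfrsf1b and Tnfrsf25 were not called.

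**Figure D1:**
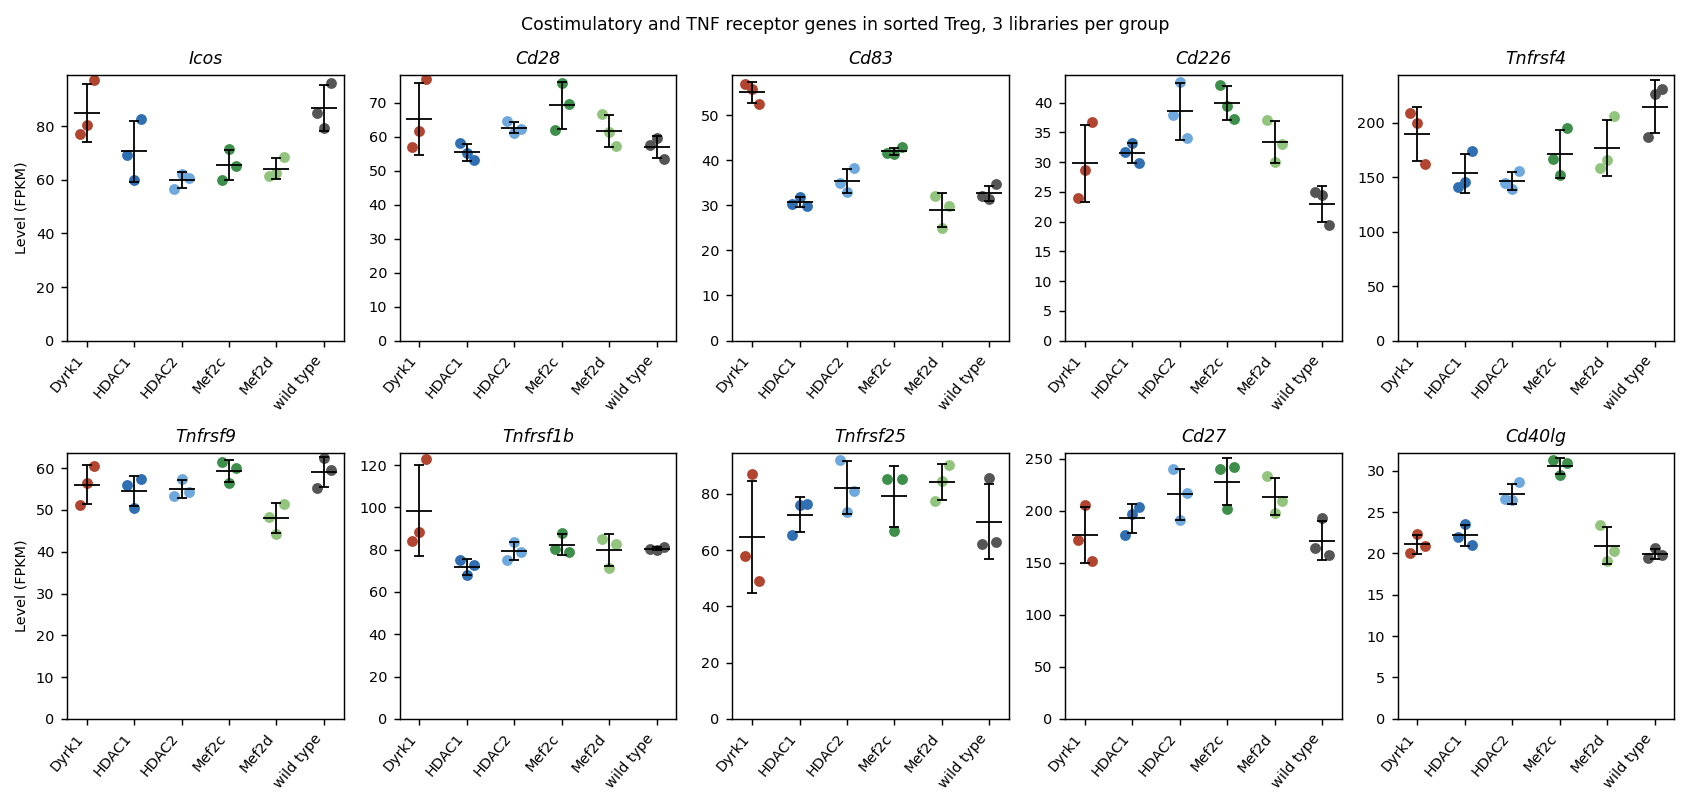
Level of each of the 10 genes (FPKM, axes from 0) in the 18 libraries, in 1 panel a gene. Points are libraries and black lines are the group mean ± SD, with the 5 deletion groups left of wild type. Cd83 is highest in the 3 Dyrk1 deletion libraries (52.5 to 56.9 FPKM), Cd40lg in the 3 Mef2c deletion libraries (29.5 to 31.3 FPKM), and Icos is lower in every HDAC2, Mef2c and Mef2d deletion library than in any wild-type library.

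In the Ig family, Icos fell in 3 of the 5 deletion groups, Cd226 rose in 4, Cd83 rose in 2, and Cd28 passed the test in none. ICOS, the inducible costimulator, binds ICOS ligand on antigen-presenting cells and marks effector regulatory T cells. Icos measured 56.6, 62.2 and 60.8 FPKM in the HDAC2 deletion libraries, 59.9, 71.4 and 65.3 FPKM in the Mef2c deletion libraries and 61.4, 62.6 and 68.6 FPKM in the Mef2d deletion libraries. It measured 77.1, 80.4 and 97.3 FPKM in the Dyrk1 deletion libraries and 69.4, 60.0 and 82.7 FPKM in the HDAC1 deletion libraries, against 84.9, 79.3 and 96.1 FPKM in the wild-type libraries. The HDAC2, Mef2c and Mef2d deletion libraries all lie under the lowest wild-type library, whereas the Dyrk1 and HDAC1 deletion libraries overlap the wild-type range. With HDAC2 deletion Icos fell by 0.52 ± 0.11 (log2 ± SE, adjusted p = 0.00573), that is to 0.695 times wild type on the FPKM + 1 scale. With Mef2d deletion it fell by 0.43 (adjusted p = 0.0172) and with Mef2c deletion by 0.40 (adjusted p = 0.0244). The HDAC1 deletion difference was -0.30 (95% interval -0.54 to -0.06, adjusted p = 0.0940) and the Dyrk1 deletion difference -0.03 (-0.28 to 0.21, adjusted p = 0.868). The HDAC2 call for Icos held without any 1 library. The Mef2c call was lost without wild-type replicate 1 (-0.41, adjusted p = 0.0529), wild-type replicate 3 (-0.32), Mef2c deletion replicate 1 (-0.34) or Mef2c deletion replicate 3 (-0.40), and the Mef2d call without wild-type replicate 3 (-0.35), Mef2d deletion replicate 1 (-0.40) or Mef2d deletion replicate 2 (-0.41). The HDAC1 difference was called only without HDAC1 deletion replicate 3 (-0.42, adjusted p = 0.0372). With the 3 libraries of high B cell marker sums left out, both Mef2 differences in Icos, -0.34 for Mef2c and -0.40 for Mef2d, missed the threshold.

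CD226, also called DNAM-1, is an activating receptor that shares its ligands, PVR and nectin-2, with the inhibitory receptor TIGIT. Its gene is at chr18:89176967-89272229, plus strand. Cd226 measured 42.9, 39.4 and 37.3 FPKM with Mef2c deletion, 37.9, 43.5 and 34.1 FPKM with HDAC2 deletion and 37.1, 30.0 and 33.1 FPKM with Mef2d deletion. It measured 31.7, 33.2 and 29.8 FPKM with HDAC1 deletion and 24.0, 28.6 and 36.7 FPKM with Dyrk1 deletion, against 24.9, 24.4 and 19.4 FPKM in wild type. All libraries of 4 deletion groups lie above the highest wild-type library, and only in the Dyrk1 deletion group does 1 library fall within the wild-type range. Cd226 rose by 0.78 ± 0.14 with Mef2c deletion (1.72-fold, adjusted p = 0.00131), by 0.73 with HDAC2 deletion (1.65-fold, adjusted p = 0.00328), by 0.53 with Mef2d deletion (1.44-fold, adjusted p = 0.0146) and by 0.45 with HDAC1 deletion (1.37-fold, adjusted p = 0.0417). The Dyrk1 deletion difference of 0.35 (95% interval 0.06 to 0.64) missed the threshold (adjusted p = 0.0866), and it passed without Dyrk1 deletion replicate 1 (0.49, adjusted p = 0.0197). The Mef2c and HDAC2 calls held without any 1 library. The Mef2d call was lost without wild-type replicate 3 (0.42) or Mef2d deletion replicate 1 (0.45). The HDAC1 call for Cd226 was lost without wild-type replicate 1 (0.52), wild-type replicate 3 (0.34), or any of the HDAC1 deletion replicates 1 (0.45), 2 (0.42) and 3 (0.49), and also with no filter, with median of ratios scaling, with the replicate block and with length and GC trends removed.

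NK and cytotoxic cells also carry CD226. The 8 NK and cytotoxic markers summed to 58.6 to 78.5 FPKM with Mef2c deletion, 95.4 to 151 FPKM with HDAC2 deletion, 45.0 to 83.2 FPKM with Mef2d deletion, 107 to 131 FPKM with HDAC1 deletion and 81.6 to 139.7 FPKM with Dyrk1 deletion, against 71.9 to 109 FPKM in wild type, and none of them was at 0 in any library. The sums lay within or under the wild-type range in the Mef2c and Mef2d deletion libraries. In the HDAC1, HDAC2 and Dyrk1 deletion groups some libraries lay above that range and others within it. The part of such cells in the Cd226 differences was not tested in any group.

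CD83 is an Ig-family membrane protein best known from mature dendritic cells and activated lymphocytes. Cd83 measured 56.9, 55.8 and 52.5 FPKM with Dyrk1 deletion and 41.6, 41.4 and 42.9 FPKM with Mef2c deletion, against 32.0, 31.3 and 34.6 FPKM in wild type. It measured 35.0, 33.0 and 38.3 FPKM with HDAC2 deletion, 30.3, 31.9 and 29.9 FPKM with HDAC1 deletion and 32.1, 24.9 and 29.9 FPKM with Mef2d deletion. The Dyrk1 and Mef2c deletion libraries form 2 separate bands above all the others, and the remaining groups overlap wild type. Cd83 rose by 0.74 ± 0.08 with Dyrk1 deletion (1.67-fold, adjusted p = 7.49e-05) and by 0.36 with Mef2c deletion (1.28-fold, adjusted p = 0.00677). Both calls held under each of the 13 alternative settings. In the order of group means, Dyrk1 over Mef2c deletion was the only step between neighbours, over all 10 genes, that passed the test (0.38, adjusted p = 0.00290). B cells and dendritic cells also carry CD83. In the Dyrk1 deletion libraries 1, 2 and 3 the B cell markers summed to 388, 31.2 and 25.4 FPKM and the 12 dendritic and myeloid markers to 501, 32.0 and 31.4 FPKM. Cd83 was 55.8 and 52.5 FPKM in the 2 libraries whose sums lie within the wild-type ranges, which were 22.0 to 44.4 FPKM for B cell markers and 15.1 to 198 FPKM for dendritic and myeloid markers. With the 3 libraries of high B cell marker sums left out, the Cd83 differences from wild type stayed called in both groups. B cell marker sums in the Mef2c deletion libraries were 56.1 to 121 FPKM, all above wild type. The part of B cells and dendritic cells in the Cd83 differences was not tested in either group.

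CD28, the constitutive costimulatory receptor for CD80 and CD86, was called in none of the 15 pairs of groups. Cd28 averaged 69.2 ± 6.86 FPKM with Mef2c deletion, 65.2 ± 10.5 FPKM with Dyrk1 deletion, 62.7 ± 1.75 FPKM with HDAC2 deletion, 61.8 ± 4.72 FPKM with Mef2d deletion and 55.5 ± 2.46 FPKM with HDAC1 deletion, against 56.9 ± 3.26 FPKM in wild type (SD, n = 3 each). The Mef2c deletion difference, 0.27 with a 95% interval of 0.07 to 0.48, had an adjusted p of 0.0633 although its 3 libraries lie above all 3 wild-type libraries. With the 3 libraries of high B cell marker sums left out it passed (0.35, adjusted p = 0.0283). For HDAC1 deletion the interval ran from -0.24 to 0.17, so changes within those limits could not be told from none. Over the 18 libraries the levels of Icos and Cd28, both on chromosome 1, had a Pearson correlation of -0.09.

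In the TNF receptor superfamily, Tnfrsf4 fell with both HDAC deletions, Tnfrsf9 fell with Mef2d deletion, Cd27 rose with Mef2c deletion, and Tnfrsf1b and Tnfrsf25 passed against wild type in no group. OX40, encoded by Tnfrsf4, is the receptor for OX40 ligand. Tnfrsf4 measured 145, 139 and 156 FPKM with HDAC2 deletion and 141, 146 and 174 FPKM with HDAC1 deletion, against 187, 227 and 231 FPKM in wild type. It measured 167, 152 and 195 FPKM with Mef2c deletion, 159, 166 and 206 FPKM with Mef2d deletion and 209, 199.6 and 162 FPKM with Dyrk1 deletion. Only the 2 HDAC groups lie wholly under the lowest wild-type library. Tnfrsf4 fell by 0.54 ± 0.13 with HDAC2 deletion (adjusted p = 0.00846), to 0.686 times wild type, and by 0.48 with HDAC1 deletion (adjusted p = 0.0266), to 0.717 times wild type. The HDAC2 call held under all 13 alternative settings. The HDAC1 call for Tnfrsf4 was lost without wild-type replicate 2 (-0.44), wild-type replicate 3 (-0.43), HDAC1 deletion replicate 1 (-0.42) or HDAC1 deletion replicate 2 (-0.45), and also with no filter. The differences with Mef2c (-0.33), Mef2d (-0.28) and Dyrk1 deletion (-0.18) were negative too, with adjusted p of 0.0889, 0.128 and 0.368. Without Mef2c deletion replicate 3 the Mef2c difference in Tnfrsf4 passed (-0.42, adjusted p = 0.0489).

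The product of Tnfrsf9 is 4-1BB, an inducible receptor on activated T cells. Tnfrsf9 measured 48.4, 44.3 and 51.5 FPKM with Mef2d deletion, against 55.3, 62.5 and 59.6 FPKM in wild type, and the groups did not overlap. It fell by 0.29 ± 0.07 (adjusted p = 0.0136), to 0.816 times wild type. Without wild-type replicate 3 it missed the threshold (-0.29, adjusted p = 0.0535), as it did without Mef2d deletion replicate 2 (-0.24, adjusted p = 0.0646). The other 4 deletion groups averaged 54.6 to 59.3 FPKM, with differences from wild type between -0.11 and 0.01 for Tnfrsf9. Their 95% intervals all lay within -0.27 to 0.17.

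CD27 binds CD70 and is a receptor of naive and memory lymphocytes. Cd27 measured 240.1, 202 and 242 FPKM with Mef2c deletion, 239.9, 191 and 217 FPKM with HDAC2 deletion and 233, 198 and 209.7 FPKM with Mef2d deletion. It measured 177, 197 and 204 FPKM with HDAC1 deletion and 172, 206 and 152 FPKM with Dyrk1 deletion, against 164, 193 and 157 FPKM in wild type. Mef2c and Mef2d deletion libraries lie above all wild-type libraries, and 1 HDAC2 deletion library lies below the highest wild-type one. Only the Mef2c difference passed, 0.41 ± 0.12 (1.33-fold, adjusted p = 0.0285). It was lost without wild-type replicate 1 (0.38), wild-type replicate 3 (0.35), Mef2c deletion replicate 1 (0.37) or Mef2c deletion replicate 3 (0.36), and also with no filter, without the 3 libraries of high B cell marker sums and in the fit of the 6 libraries alone. The HDAC2 and Mef2d differences in Cd27 were 0.33 and 0.32, with adjusted p of 0.0561 and 0.0713. Both passed without wild-type replicate 2 (0.42 and 0.41), and the HDAC2 difference also without HDAC2 deletion replicate 2 (0.42). Plasma cells can carry CD27, and the 7 plasma cell markers summed to 169.6 to 220.2 FPKM with Mef2c deletion and 674 to 2116 FPKM with HDAC2 deletion, against 201 to 504 FPKM in wild type. The Mef2c deletion sums lay below the wild-type range or at its lower end, and the HDAC2 deletion sums above it. The part of plasma cells in the Cd27 differences was not tested.

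**Figure D2:**
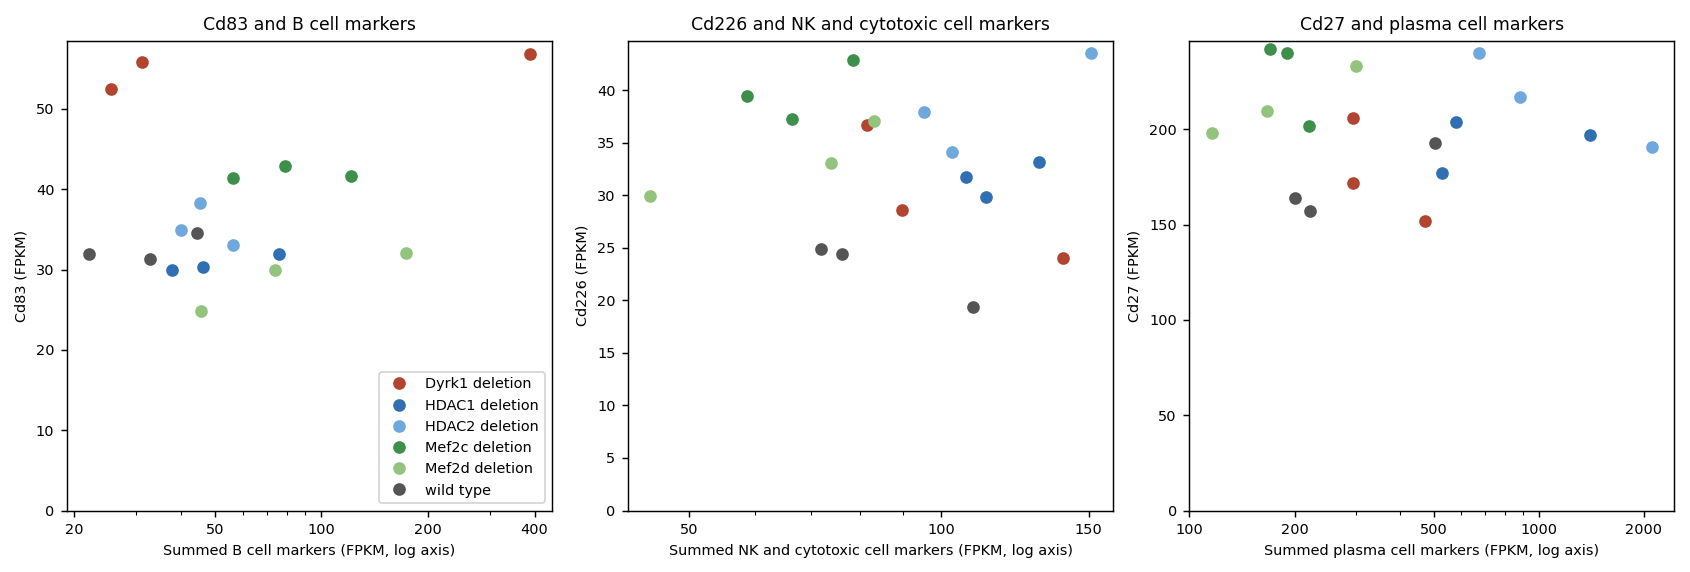
Level of Cd83, Cd226 and Cd27 (FPKM, axes from 0) against the summed FPKM (log axis) of B cell, NK and cytotoxic cell, and plasma cell markers in the same library. Each point is 1 of the 18 libraries, coloured by group. The 3 Dyrk1 deletion libraries have like Cd83 levels (52.5 to 56.9 FPKM) at B cell marker sums from 25.4 to 388 FPKM.

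TNFR2, encoded by Tnfrsf1b, is the TNF receptor most closely tied to regulatory T cell expansion. Tnfrsf1b measured 84.2, 88.2 and 123 FPKM with Dyrk1 deletion, against 80.3, 80 and 81.3 FPKM in wild type. The Dyrk1 libraries lie above all wild-type libraries and 1 of them far above, and the difference of 0.27 (95% interval 0.03 to 0.51) missed the threshold (adjusted p = 0.113). Without Dyrk1 deletion replicate 1 it was 0.37 (adjusted p = 0.0346). The other 4 deletion groups averaged 71.9 to 82.4 FPKM, and none of their differences in Tnfrsf1b passed. DR3, encoded by Tnfrsf25, is the receptor for TL1A, and agonists of it are known to expand regulatory T cells in mice. Tnfrsf25 measured 57.8, 87.0 and 49.0 FPKM with Dyrk1 deletion, against 62.0, 85.6 and 62.8 FPKM in wild type, and averaged 72.6 to 84.2 FPKM in the other 4 groups. It had the widest spread between replicates of the 10 genes, with a coefficient of variation of 30.7% in the Dyrk1 deletion group and 19.1% in wild type. Its SE was 0.18, and every 95% interval against wild type reached from below -0.10 to above 0.20, so changes of that size could not be seen here.

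CD40 ligand, encoded by Cd40lg, is the TNF-family ligand by which activated CD4 T cells signal to B cells and dendritic cells, and it is usually lower in regulatory than in other activated CD4 T cells. Cd40lg measured 31.3, 29.5 and 30.9 FPKM with Mef2c deletion and 26.6, 26.4 and 28.6 FPKM with HDAC2 deletion, against 19.4, 20.6 and 19.8 FPKM in wild type. It measured 22.0, 23.5 and 21.01 FPKM with HDAC1 deletion, 20.1, 22.3 and 20.9 FPKM with Dyrk1 deletion and 23.4, 19.0 and 20.3 FPKM with Mef2d deletion. The Mef2c and HDAC2 deletion libraries stand above the highest library of every other group. Cd40lg rose by 0.59 ± 0.07 with Mef2c deletion (1.51-fold, adjusted p = 4.49e-05) and by 0.43 with HDAC2 deletion (1.35-fold, adjusted p = 0.00238), and both calls held under all 13 alternative settings. For the other 3 groups the differences were 0.15 with HDAC1 deletion, 0.08 with Dyrk1 deletion and 0.06 with Mef2d deletion, with 95% intervals reaching 0.29, 0.22 and 0.21, and none passed.

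**Figure D3:**
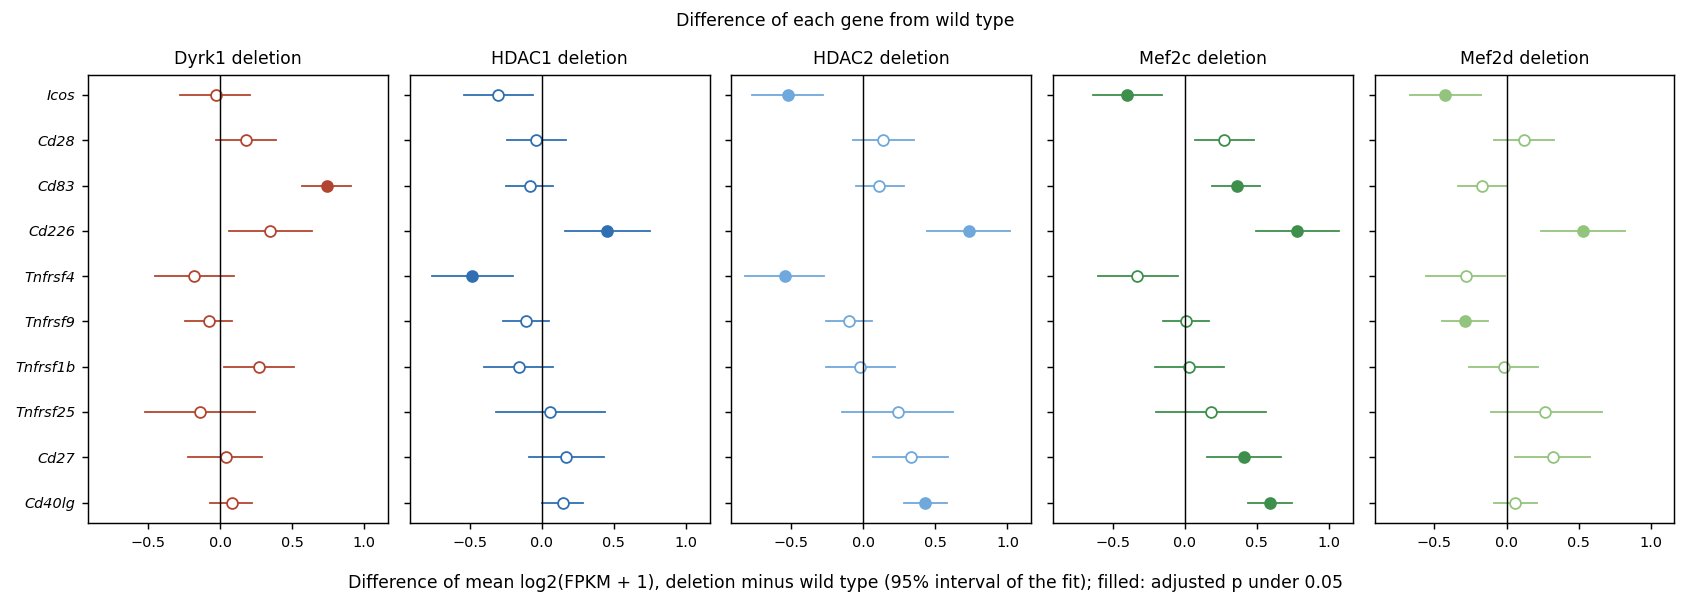
Difference from wild type (log2 of FPKM + 1) for each of the 10 genes in the 5 deletion groups. Points are limma estimates, bars are 95% intervals, and filled points passed an adjusted p of 0.05. The Dyrk1 deletion group has 1 filled point, Cd83 at 0.74, and the Mef2c deletion group has 5.

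Read by comparison, Mef2c deletion called 5 of the 10 genes (Cd226, Cd40lg, Cd27 and Cd83 higher, Icos lower), where 19.0% of all tested genes were called. HDAC2 deletion called 4 (Cd226 and Cd40lg higher, Icos and Tnfrsf4 lower) over a background of 25.6%. Mef2d deletion called 3 (Cd226 higher, Icos and Tnfrsf9 lower) over 21.9%, HDAC1 deletion 2 (Cd226 higher, Tnfrsf4 lower) over 12.5%, and Dyrk1 deletion 1 (Cd83 higher) over 17.3%. Set against 10 genes, the counts with Mef2d, HDAC1 and Dyrk1 deletion are near the background share. The genes were chosen with earlier results of these data known. No count, those with Mef2c and HDAC2 deletion included, is therefore read as a result about these genes as a set. Counting genes whose 3 libraries do not overlap wild type gave 6 with Mef2c deletion (36.3% of all genes), 5 with HDAC2 deletion (46.6%), 4 with Mef2d deletion (42.3%), 4 with HDAC1 deletion (35.7%) and 2 with Dyrk1 deletion (29.8%). The median difference of the 10 genes was 0.23 with Mef2c deletion, where that of all genes was 0.04. It was 0.13 with HDAC2 deletion (all genes 0.05), 0.02 with Mef2d deletion (0.04), -0.06 with HDAC1 deletion (0.05) and 0.06 with Dyrk1 deletion (0.02). Counts that turned on 1 library were those of Mef2d deletion, 0 without wild-type replicate 3 and 1 without Mef2d deletion replicate 1 or 2, of HDAC1 deletion, 0 without wild-type replicate 3 or HDAC1 deletion replicate 1 or 2 and 1 without wild-type replicate 1 or 2, of Mef2c deletion, 3 without wild-type replicate 1 or 3 or Mef2c deletion replicate 1, and of Dyrk1 deletion, 3 without Dyrk1 deletion replicate 1.

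Direct comparisons between deletion groups do not use the wild-type means, though all 18 libraries set the spread. MEF2C and MEF2D are paralogous transcription factors, and HDAC1 and HDAC2 paralogous histone deacetylases. Between the Mef2c and Mef2d deletion groups 3 of the 10 genes differed, where 3.06% of all genes did. With Mef2c deletion Cd83 was higher by 0.53 ± 0.08 (adjusted p = 0.000916), Cd40lg by 0.53 ± 0.07 (adjusted p = 0.000240) and Tnfrsf9 by 0.30 ± 0.07 (adjusted p = 0.0411). For Cd83 and Cd40lg this held without any 1 library. For Tnfrsf9 it was lost without any of the Mef2c deletion replicates 1 (0.27), 2 (0.33) and 3 (0.29), or without Mef2d deletion replicate 1 (0.31) or 2 (0.24). That Tnfrsf9 call was also lost with no filter, without the 3 libraries of high B cell marker sums, with length and GC trends removed and in the fit of the 6 libraries alone, so it passed in 4 of 13 alternatives. Icos and Cd226, called in the same direction against wild type in both groups, were not called between them.

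Between the HDAC1 and HDAC2 deletion groups limma called none of the 10 genes, where it called 1.50% of all genes, and 2 had an unadjusted p under 0.05. The nearest to the threshold was Cd40lg, lower with HDAC1 deletion by 0.28 (95% interval -0.43 to -0.14, adjusted p = 0.0605), and it passed without HDAC1 deletion replicate 2 (-0.33, adjusted p = 0.0489). For Cd226 the difference was -0.27 with an interval of -0.56 to 0.02, and for Icos 0.23 with an interval of -0.02 to 0.47, so the 2 groups are not shown to act alike on these genes. Tnfrsf4 differed by 0.06 (-0.21 to 0.34).

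Dyrk1 deletion stood apart from HDAC2 deletion in 3 genes, where 17.4% of all genes were called: Cd83 higher by 0.62 (adjusted p = 0.000112), Icos higher by 0.49 (adjusted p = 0.00778) and Cd40lg lower, at -0.35 (adjusted p = 0.00265). All 3 held without any 1 library, and the count reached 5 without Dyrk1 deletion replicate 2 (Tnfrsf25 -0.61 and Cd27 -0.41 in addition) or replicate 3 (Cd226 -0.53 and Tnfrsf4 0.48). From Mef2c deletion it differed in 5 genes (background 19.7%), of which Cd83 (0.38) and Cd40lg (-0.52, adjusted p = 0.000110) held under all 13 alternatives. From Mef2d deletion it differed in Icos and Cd83 (background 17.0%), with Cd83 higher by 0.91 (adjusted p = 2.90e-06), the largest difference between any 2 groups for the 10 genes. From HDAC1 deletion it differed in Cd83 (0.82, adjusted p = 1.70e-05) and Tnfrsf1b (0.43, adjusted p = 0.0242), over a background of 9.50%. The Tnfrsf1b difference was lost without Dyrk1 deletion replicate 3 (0.26), HDAC1 deletion replicate 2 (0.39) or HDAC1 deletion replicate 3 (0.44), and in the fit of the 6 libraries alone. The Icos difference from Mef2d deletion was lost without Dyrk1 deletion replicate 3 (0.29), Mef2d deletion replicate 1 (0.36) or Mef2d deletion replicate 2 (0.38), and also with no filter, without the 3 libraries of high B cell marker sums and in the fit of the 6 libraries alone. Cd83 was thus higher with Dyrk1 deletion than in each of the other 5 groups, and in no setting tried was that call lost.

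Among the remaining pairs, HDAC1 deletion differed from Mef2c deletion in Cd83 (-0.44, adjusted p = 0.00192) and Cd40lg (-0.45, adjusted p = 0.000586), over a background of 9.76%. HDAC2 deletion differed from Mef2d deletion in Cd40lg alone (0.37, adjusted p = 0.00479), over 4.30%, a call lost in the fit of the 6 libraries alone (adjusted p = 0.0741). Limma called none of the 10 genes between HDAC1 and Mef2d deletion (background 7.09%, 1 gene at an unadjusted p under 0.05) or between HDAC2 and Mef2c deletion (background 6.45%, 2 genes). Cd40lg, then, split the groups in 2, with Mef2c and HDAC2 deletion above the rest, although the step from HDAC2 to HDAC1 deletion missed the threshold.

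The correlations that follow are descriptions over 18 libraries that share the sort, the scaling and, by 3, a group. Tnfrsf25 and Cd27 varied most alike (Pearson r = 0.837 on the log2 scale), then Cd226 and Cd40lg (0.740) and Cd27 and Cd40lg (0.673). Icos ran against Cd27 (-0.775) and Cd226 (-0.645), and Tnfrsf4 ran against Cd226 (-0.736). Single libraries also stood apart: Dyrk1 deletion replicate 3 was the highest of the 18 in Icos (97.3 FPKM), Cd28 (77.1 FPKM) and Tnfrsf1b (123 FPKM) and the lowest in Tnfrsf25 (49.0 FPKM) and Cd27 (152 FPKM).

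**Figure D4:**
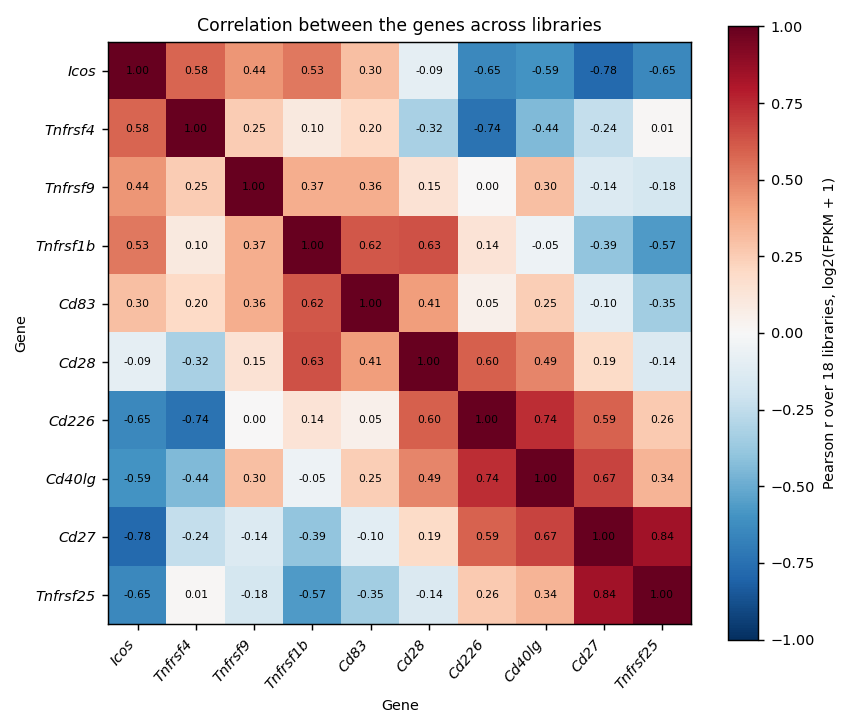
Pearson correlation of log2(FPKM + 1) between each pair of the 10 genes over the 18 libraries, from -1 (blue) to 1 (red). Tnfrsf25 and Cd27 have the highest value (0.84 as drawn) and Icos and Cd27 the lowest (-0.78 as drawn).

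Outside the 10 genes, those most like each one over the 18 libraries were named by the highest Pearson correlation. For Cd226 they were Abcb1a (0.967), the closest match found, Arhgef12 (0.951) and Zfp287 (0.942). For Icos they were Psmd13 (0.944), Vim (0.935) and Dnajc2 (0.935). Tnfrsf25 came closest to Xlr4a (0.939), Cd27 to Qtrt2 (0.936), Cd40lg to Ces2c (0.916), Tnfrsf4 to Mrpl4 (0.912) and Cd83 to Fads1 (0.903). Tnfrsf1b was nearest to Tfe3 (0.893), Cd28 to Sash3 (0.879) and Tnfrsf9 to Fhdc1 (0.782), the weakest best match of the 10.

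Genes that act with these receptors were taken from 5 lists: their ligands and partners, the other TNF receptor superfamily genes, other Ig-family receptors of T cells, TRAF adaptors with NF-kB signalling genes, and the signalling genes next to CD28 and ICOS. Over all genes tested, 12.5% were called with HDAC1 deletion, 25.6% with HDAC2 deletion, 19.0% with Mef2c deletion, 21.9% with Mef2d deletion and 17.3% with Dyrk1 deletion. The counts below are descriptions beside those shares, and nothing is read from them about a list. The genes named below passed under every one of their alternatives unless a limit is given. Of 10 ligands and partners tested, 3 rose with HDAC1 deletion, 3 with HDAC2 deletion, 2 with Mef2d deletion, 2 with Dyrk1 deletion and 1 with Mef2c deletion, and none fell. Of the 3 with HDAC1 deletion, 1 reached the filter only through that group. It averaged 1.24 FPKM there and 0.235 to 0.504 FPKM in the other groups, so its call is no support for a rise. This gene was not tested when an HDAC1 deletion replicate was left out, which by itself lowers the count. Leaving out wild-type replicate 2 or Dyrk1 deletion replicate 2 took the Dyrk1 deletion count to 0, leaving out wild-type replicate 1 or 3 or Dyrk1 deletion replicate 1 took it to 1, and the HDAC1 deletion count was 1 without HDAC1 deletion replicate 1 or 2. With Mef2d deletion 1 passed once wild-type replicate 1 or 3 or any Mef2d deletion replicate was left out, and with Mef2c deletion it was 2 without Mef2c deletion replicate 3. Cd86, a ligand of CD28, averaged 15.7 ± 0.668 FPKM with Mef2c deletion and 13.3 ± 2.08 FPKM with HDAC2 deletion, against 8.999 ± 0.866 FPKM in wild type (SD, n = 3 each). Its log2 differences were 0.75 (adjusted p = 0.000147) and 0.51 (adjusted p = 0.00377). Pvr, the ligand of CD226, averaged 17.9 ± 1.20 FPKM with Mef2d deletion and 16.1 ± 0.322 FPKM with HDAC2 deletion, against 12.3 ± 1.51 FPKM in wild type, differences of 0.51 (adjusted p = 0.000505) and 0.37 (adjusted p = 0.00433). Cd80, the other CD28 ligand, was low, at 3.04 ± 0.815 FPKM with HDAC1 deletion and 1.57 ± 0.208 FPKM in wild type, a difference of 0.64 (adjusted p = 0.0101). B cells and dendritic cells carry CD80 and CD86. The B cell markers summed to 37.8 to 75.99 FPKM with HDAC1 deletion, 56.1 to 121 FPKM with Mef2c deletion and 40.1 to 56.1 FPKM with HDAC2 deletion, against 22.0 to 44.4 FPKM in wild type. The dendritic and myeloid markers summed to 108 to 332 FPKM with HDAC1 deletion, 68.1 to 241 FPKM with Mef2c deletion and 22.6 to 161 FPKM with HDAC2 deletion, against 15.1 to 198 FPKM in wild type, and the part of either cell type in these differences was not tested. Tnfsf15 and Cd70, the ligands of DR3 and CD27, were below the filter.

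Of the 22 other TNF receptor superfamily genes, 14 passed the filter. Tnfrsf1a, which encodes the first TNF receptor, TNFR1, rose in 4 groups and was not called with Dyrk1 deletion. It averaged 20.2 FPKM with HDAC2 deletion, 20.2 FPKM with Mef2d deletion, 19.0 FPKM with Mef2c deletion and 18.6 FPKM with HDAC1 deletion, against 13.8 ± 1.51 FPKM in wild type (SD, n = 3). The differences were 0.52, 0.52, 0.44 and 0.40, with adjusted p from 0.000615 with Mef2d deletion to 0.00704 with HDAC1 deletion. Tnfrsf1b, its partner in binding TNF, did not pass in any of these groups. Beside Tnfrsf1a, 2 more genes rose with HDAC2 deletion, 2 with Mef2c deletion and 1 with HDAC1 deletion, none passed with Dyrk1 deletion by limma (1 at an unadjusted p under 0.05), and none of the 14 fell in any group. With Tnfrsf1a counted, the Mef2c deletion count of 3 was 1 without wild-type replicate 1 or 3 or Mef2c deletion replicate 2, and the HDAC1 deletion count of 2 was 1 without wild-type replicate 1 or 3 or HDAC1 deletion replicate 2. The Mef2d deletion count of 1 was 2 without wild-type replicate 2. Tnfrsf17, the plasma cell receptor BCMA, was 1 of these, at 3.38 ± 0.821 FPKM with HDAC2 deletion and 1.08 ± 0.350 FPKM in wild type (log2 difference 1.07, adjusted p = 0.00479), in the group with the highest plasma cell marker sums, a list that holds this gene.

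Among 13 other Ig-family receptors, 4 fell and 1 rose with Dyrk1 deletion, 1 fell with HDAC1 deletion, 2 rose and 1 fell with HDAC2 deletion, 3 rose with Mef2c deletion and 2 rose with Mef2d deletion. The Dyrk1 deletion count of 5 was 3 without wild-type replicate 3 or Dyrk1 deletion replicate 2 and 0 in the fit of the 6 libraries alone, and the HDAC2 deletion count of 3 was 1 without wild-type replicate 3. The HDAC1 deletion count of 1 was 0 without wild-type replicate 2 or 3 or HDAC1 deletion replicate 1 or 2, and 2 without HDAC1 deletion replicate 3. Cd96, which binds PVR as CD226 does, averaged 57.2 ± 1.79 FPKM with Dyrk1 deletion and 77.9 ± 5.80 FPKM in wild type (-0.44, adjusted p = 0.000565). Cd5 and Cd6, inhibitory scavenger receptors of T cells that the list counts here, differed by -0.32 and -0.33 in the same group. These 3 calls were lost when only the 6 libraries compared were fitted. Btla, an inhibitory receptor, averaged 54.2 ± 2.57 FPKM with Mef2d deletion and 34.7 ± 2.29 FPKM in wild type (0.63, adjusted p = 1.21e-05). Cd84, of the SLAM family, rose by 0.51 with Mef2d deletion (adjusted p = 0.000922) and by 0.40 with Mef2c deletion (adjusted p = 0.00355). Cd2, the adhesion receptor for CD48 in mice, averaged 420.1 ± 16.7 FPKM with HDAC2 deletion and 506 ± 19.98 FPKM in wild type, a fall of 0.27 (adjusted p = 0.00513).

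Of 22 TRAF and NF-kB signalling genes, 2 rose with Dyrk1 deletion, none passed with HDAC1 deletion by limma (2 at an unadjusted p under 0.05), 1 rose and 3 fell with HDAC2 deletion, 1 rose and 1 fell with Mef2c deletion and 3 rose with Mef2d deletion. The HDAC2 deletion count of 4 was 0 without HDAC2 deletion replicate 1, 1 without HDAC2 deletion replicate 3 and 2 without any 1 of the wild-type libraries. With Mef2d deletion 1 passed once wild-type replicate 3 or any Mef2d deletion replicate was left out, with Mef2c deletion 1 passed once wild-type replicate 3 or Mef2c deletion replicate 1 was left out, and the Dyrk1 deletion count was 5 without Dyrk1 deletion replicate 1. Traf5, an adaptor of OX40 and CD27, averaged 27.6 ± 1.87 FPKM with Mef2d deletion and 20.9 ± 0.474 FPKM in wild type (0.39, adjusted p = 0.00262). Traf6 fell by 0.28 with Mef2c deletion (adjusted p = 0.0105). Nfkb2, the precursor of the p52 subunit, averaged 70.0 ± 1.10 FPKM with Dyrk1 deletion and 53.7 ± 2.26 FPKM in wild type (0.38, adjusted p = 0.00154), a call lost in the fit of the 6 libraries alone.

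Of 15 tested signalling genes next to CD28 and ICOS, 4 rose with HDAC2 deletion, 3 with Mef2c deletion, 3 with Mef2d deletion, 2 with HDAC1 deletion and 2 with Dyrk1 deletion, and 1 fell with Mef2d deletion. The Mef2d deletion count of 4 was 1 without wild-type replicate 3 or Mef2d deletion replicate 1 or 2 and 2 without wild-type replicate 1, and the HDAC2 deletion count of 4 was 2 without wild-type replicate 3 or HDAC2 deletion replicate 1 or 2. With HDAC1 deletion 1 passed once wild-type replicate 3 or HDAC1 deletion replicate 1 or 3 was left out, and the Dyrk1 deletion count was 1 without Dyrk1 deletion replicate 3. The median difference of each list lay between -0.05 and 0.29, with all genes between 0.02 and 0.05. Of the 55 calls that could be named from these lists, 22 passed under every alternative in which the gene was tested and none of the Dyrk1 deletion calls did. Among the 22 is the ligand or partner gene that reached the filter only through the HDAC1 deletion group, tested in 10 alternatives.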

How the data were processed

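The authors deposited 1 table of 18 libraries with values per Ensembl gene. Neither the labels nor the header name their unit. The deposited values were taken as FPKM, because they are not whole, differ in total between libraries (430017 to 493453) and, in part, step with gene length. The submitters' processing notes name STAR, HTSeq and mm10, and the versions, the annotation and the strand setting are not given in the sources used here. Symbols came from GENCODE M21, for 34490 of 35275 identifiers.

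The 12223 genes that reached 1 FPKM in 3 or more libraries were fitted on log2(FPKM + 1) with limma 3.58.1 in R 4.3.3, with 6 group means, an intensity trend and 12 residual degrees of freedom, and p-values were adjusted by Benjamini-Hochberg over all of them. The pseudocount makes folds of low genes smaller than they are. The scripts were tested on simulated data. Depth was estimated from the steps of the low values. With annotated lengths only 48.2 to 52.0% of the low values came out whole within a tolerance of 0.03, so no count test was run. No 2 columns were identical.

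All 10 genes are described. From the lists, up to 3 called genes per list and comparison could be named, by smallest p, and for each of the 10 genes the 3 best correlates. A listed gene that this rule could name is not reported here. Both the genes and the lists were chosen with earlier results of these data known. The letters of the NF-kB motif were changed after a looser pattern, and the matches in these windows, had been seen. Alternatives were a pseudocount of 0.1, no filter, median of ratios scaling, replicate number as a block, leaving out the 3 libraries of high B cell marker sums (mean log2 level over 9 markers more than 1 above the median library), removal of length and GC trends, only the 6 libraries compared, and each library left out.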

Additional observations from a re-analysis of the deposited data

How the results depend on the processing

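Over the 15 pairs of groups the 10 genes had 33 calls, and 19 of them passed in every alternative setting. All 429 recomputed values of called differences kept their direction, 350 stayed past the threshold and 79 did not. Values called neither way changed sign 63 times, none to a size over 0.08, and 22 of 117 gained a call in some setting. Leaving out 1 library moved the number of genes called against wild type between 1 and 3 with Dyrk1 deletion, 0 and 2 with HDAC1 deletion, 4 and 5 with HDAC2 deletion, 3 and 5 with Mef2c deletion and 0 and 4 with Mef2d deletion. It moved the count between 0 and 1 for HDAC1 against HDAC2 deletion, between 2 and 3 for Mef2c against Mef2d deletion, between 3 and 5 for Dyrk1 against HDAC2 deletion and between 4 and 8 for the test over all groups. With the 3 libraries of high B cell marker sums left out, 3 genes were called with Dyrk1 deletion and 1 between HDAC1 and HDAC2 deletion. The HDAC1 deletion count was 0 with no filter, 1 with median of ratios scaling, 1 with length and GC trends removed and 1 with the replicate block. Median of ratios scaling also gave 1 for HDAC1 against HDAC2 deletion, and with no filter the test over all groups called 4. The causes were not tested. With length and GC trends removed, the Malt1 difference for HDAC1 deletion against wild type was -0.07, where it was 0.24 without that step.

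On average, samples with the same replicate number did not deviate together: their correlations averaged -0.000335 over 45 pairs, and those of other numbers 0.00125. Single same-number correlations ran from -0.453 to 0.464, and 18 of them were over 0.1. No such range was taken for pairs of other numbers, so these values do not tell whether single pairs deviated together by number. Of 18 libraries, 6 correlated best with their own number. The libraries of high B cell marker sums were all labelled replicate 1. The replicate block lost 1 call against wild type, Cd226 with HDAC1 deletion (0.45, adjusted p = 0.0588), and gave 6 genes over all groups. Median of ratios scaling left the median of all genes within 0.01 of 0, but changed the split of calls, for HDAC2 deletion to 1412 higher and 1630 lower, where the deposited scaling gave 1973 and 1150, for HDAC1 deletion to 763 and 717 (1250 and 283), for Mef2c deletion to 1073 and 1104 (1581 and 741), for Mef2d deletion to 1222 and 1346 (1705 and 972) and for Dyrk1 deletion to 1091 and 920 (1359 and 757). The thinnest value of the 10 genes stands for about 379 fragments. With SEs of 0.07 to 0.18 and 3 libraries a group, differences from wild type as large as 0.35 (Cd226 with Dyrk1 deletion) missed the threshold.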
